A study of Mus musculus with 12 samples.

Results

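The genes of 5 S100 proteins (S100a4, S100a6, S100a10, S100a11 and S100b) and 3 annexins (Anxa1, Anxa2 and Anxa5) were followed through RNA of sensory neurons that innervate the mouse tongue. They are 8 of the 22609 gene symbols counted in every library and were chosen by name, and all 8 passed the filter on low counts. Neurons of the trigeminal ganglion (TG) were marked from the tongue with WGA-488, a fluorescent lectin that nerve endings take up and carry back to the cell body, and the marked cells were sorted from ganglion suspensions. The 12 samples fell into 4 groups of 3: normal males (MN), males with a tongue tumor (MT), normal females (FN) and females with a tongue tumor (FT). All were Balb/c athymic nude mice, a strain without mature T cells that keeps its myeloid cells, aged 6 to 8 weeks. Tumor groups had received 350000 HSC3 cells, a human oral squamous cell carcinoma line, and ganglia were taken on day 15. Each normal sample pooled 4 ganglia of 2 mice and each tumor sample pooled 4 ipsilateral ganglia of 4 mice, so that p-values measure the spread between pools. By the sample labels, the normal groups received no cells and the tracer, given on day 13, was 0.5% WGA. The methods of the study instead name human oral keratinocytes for the normal groups and another tracer concentration, and which of these applied was not settled.

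S100 proteins are small EF-hand proteins that bind calcium and then dock to targets such as annexins, cytoskeletal proteins and kinases, and annexins bind the inner face of membranes when calcium rises. S100A10 is the exception that holds its open form without calcium, and it pairs with annexin A2 in a complex that carries channels and receptors to the surface of sensory neurons. In ganglia, S100B is classically a glial and large-neuron protein, S100A4 is abundant in fibroblasts and myeloid cells, and annexin A1 is known for damping inflammation.

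Each library had between 4592891 and 8922011 reads assigned to genes. FN replicate 2, FT replicate 2 and FT replicate 3 (FN2, FT2 and FT3 below) stood apart: 56.0%, 68.4% and 52.6% of their reads mapped to several places, against 43.0% to 45.5% in the 9 other libraries, and their short genes were counted more. Values with and without them are given beside the results. The sorted cells held neuronal RNA throughout, with a summed level of 21 sensory neuron markers of 30012 to 31418 CPM (counts scaled to a common total of the reads assigned to genes) in MN, 28893 to 32912 in MT, 26278 to 38106 in FN and 26833 to 36689 in FT. The sum hides single markers that moved both ways. Against the mean log2 CPM of the 9 other libraries, FN2 was at -2.52 for Avil, -1.97 for Pirt and -1.95 for Scn10a but at 1.51 for Calca and 1.70 for Tac1. FT2 was at -1.56 for Snap25 and -1.37 for Pirt but at 1.65 for Rbfox3 and 2.29 for Nefh. Markers of other cells were present too and differed between the groups, and their values stand beside the results they moved with. In such pooled RNA, fewer cells of a type and less RNA per cell cannot be told apart.

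Per kilobase of exon, several of the 8 genes ranked among the most abundant in these neurons. As RPKM, which are CPM divided by the kilobases of exon, Anxa5, which binds phosphatidylserine on membranes, averaged 1730.2 ± 92.7 (SD, n = 9 libraries without FN2, FT2 and FT3) and took rank 9 of 13655 tested genes with an exon length. S100a6, which encodes calcyclin, followed at 1154 ± 193 and rank 18. S100a10 (658 ± 100.2, rank 46) and its partner Anxa2 (645 ± 47.0, rank 49) stood side by side, and their ranges overlapped: S100a10 was the higher of the pair in 4 of the 9 libraries. The 4 remaining members were scarcer. S100b averaged 318 ± 69.0 (rank 138), S100a11 71.5 ± 15.4 (rank 969), S100a4 33.7 ± 13.9 (rank 2027) and Anxa1 2.87 ± 1.24 (rank 9040). All other neighbours kept this order in each of the 9 libraries, although the ranges of S100a11 and S100a4 touched across libraries. Over all 12 libraries S100a6 came first, since it exceeded Anxa5 in FN2 and FT2. The order of S100a6 and S100a10 depends on the length used. The combined exons of S100a10 have 1212 bases and its longest transcript 685, whereas S100a6 has 719 by either. By the longest transcript S100a10 took place 2 and S100a6 place 3 of the 8 over the 9 libraries, after Anxa5 and before Anxa2.

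**Figure D1:**
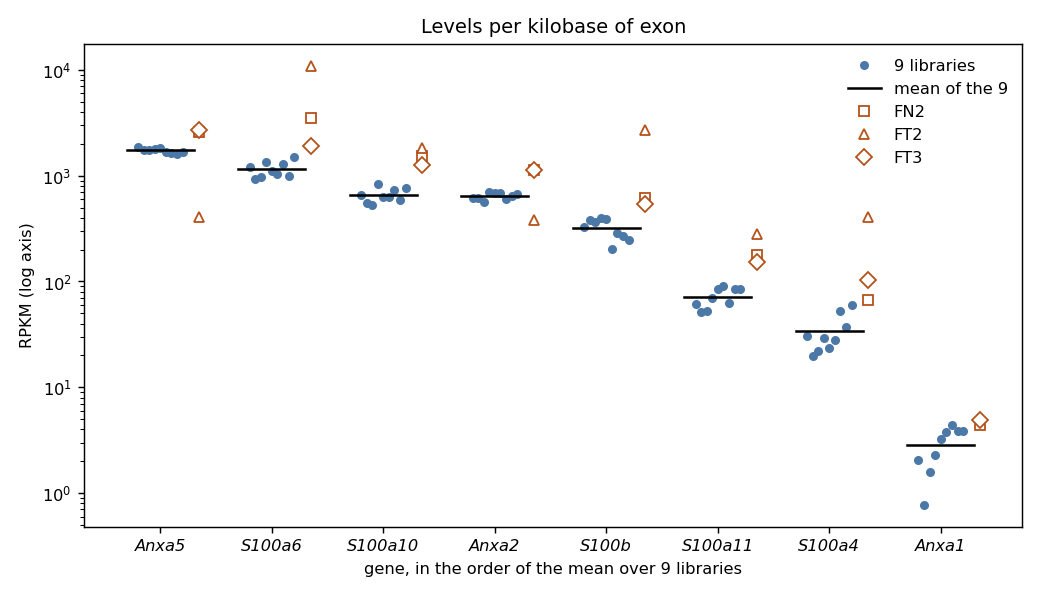
RPKM (log axis) of the 8 genes, ordered by their mean over 9 libraries (black line), with filled points for the 9 libraries and open symbols for FN2, FT2 and FT3. Anxa1 had 0 counts in FT2, which is not drawn, and the order runs from Anxa5 (1730.2) to Anxa1 (2.87), with S100a10 and Anxa2 overlapping.

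The members also differed in how steady they were. Over the 9 libraries the coefficient of variation was 5.36% for Anxa5 and 7.29% for Anxa2, the steadiest of the 8. It lay between 15.2% and 21.7% for S100a10, S100a6, S100a11 and S100b, and reached 41.4% for S100a4 and 43.3% for Anxa1, the least abundant members. In the 9 libraries the 8 genes together took 0.696% to 0.824% of the reads counted on genes.

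S100a10 (mm9 chr3:93359002-93368565, plus strand) and Anxa2 (chr9:69301427-69339602, plus strand) encode the subunits of a complex. S100a10 was counted at 793, 670.0 and 646 CPM in MN1, MN2 and MN3 and at 1007, 766 and 754 in MT1, MT2 and MT3. In females it was 896, 1841 and 720.5 in FN1, FN2 and FN3 and 927, 2227 and 1534 in FT1, FT2 and FT3. The 3 libraries that stood apart held the highest values, and without them the MN, MT and FN ranges overlapped, with FT1 inside the MT range. For Anxa2 the males gave 2319, 2317 and 2106 in MN and 2643, 2575 and 2554 in MT. The females gave 2256, 4202 and 2389 in FN and 2514, 1436 and 4176 in FT. Each MT library exceeded each MN library for Anxa2, by a narrow margin, and FT2 was the lowest of the 12 while FN2 and FT3 were the highest. The ratio of S100a10 to Anxa2 in RPKM stayed between 0.890 and 1.22 in the 9 libraries and was 1.35 in FN2, 1.13 in FT3 and 4.77 in FT2.

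S100a6 (chr3:90416816-90418336, plus strand) encodes calcyclin, an S100 protein linked to the cell cycle. Its CPM were 859.5, 672 and 695 in MN and 973, 795 and 751 in MT. They were 929.7, 2524 and 717 in FN and 1073, 7835 and 1369.8 in FT. FT2 was several-fold above every other library, and without FN2, FT2 and FT3 the MN, MT and FN ranges overlapped while FT1 was the highest library. S100a6 ran close to S100a10 in the 9 libraries. The ratio of S100a6 to S100a10 in RPKM ran from 1.63 to 1.95, against 2.31 in FN2, 5.93 in FT2 and 1.51 in FT3. The size of this ratio depends on the length used, since the longest transcript of S100a10 (685 bases) is shorter than its combined exons (1212).

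S100b (chr10:75716598-75723904, plus strand), the S100 protein of glia and of large myelinated neurons, stood at 489.6, 562 and 536 CPM in MN and at 587, 578 and 304 in MT. In FN it was 422, 907 and 395 and in FT 369.8, 3969 and 808. MT3 was the lowest library of all and FT2 was far above the rest, and no pair of groups was separated over the 12 libraries. Without FN2, FT2 and FT3 the 3 female libraries lay below all MN libraries and inside the MT range. In MT3 the summed level of 8 markers of large myelinated neurons was also the lowest of the 12, at 890.4 CPM against 1062 to 1779.8 in the other 8 of the 9 libraries. The glial sums of MT3 were not low. Its satellite glia sum of 6381 CPM was the highest of the males, and its Schwann cell sum of 2663 CPM was the highest of the 9 libraries. In FT2 the large neuron sum was 4124 CPM, the highest. There the satellite glia sum of 8598 CPM lay within the 4687 to 9774 of the 9 libraries, and the Schwann cell sum of 1392 CPM lay below their 1641 to 2663. The part of these cells in the S100b values was not tested. S100b overlaps Dip2a on the opposite strand, and the strand setting of the counting is not given in the sources used here. Dip2a was counted at only 7.96 to 29.2 CPM.

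S100a4 (chr3:90407692-90409967, plus strand), a regulator of cell motility, gave 18.0, 11.5 and 13.0 CPM in MN and 17.2, 13.9 and 16.5 in MT. Female libraries gave 30.7, 38.9 and 21.8 in FN and 35.4, 240.4 and 60.7 in FT. All 6 female libraries exceeded all 6 male ones, and this also held for the 3 females left without FN2, FT2 and FT3 (21.8 to 35.4 CPM against 11.5 to 18.0 in males). The share of all genes separated in this way was not computed. Between single groups, 9.66% of genes were higher in all FN than in all MN libraries and 8.03% in all FT than in all MT libraries. S100a1 and the satellite glia marker Apoe were also higher in all 6 female libraries.

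S100a11 (chr3:93324410-93330209, plus strand), a partner of annexin A1 in membrane repair, was at 31.1, 26.3 and 26.7 CPM in MN and at 35.6, 43.8 and 46.5 in MT. The values were 31.9, 90.7 and 43.8 in FN and 42.9, 143 and 78.5 in FT. No MN library reached the lowest library of any other group. Its level is uncertain: of 364 windows of 50 bases along its exons, 208 (57.1%) had an exact copy elsewhere in the mm9 genome, at up to 4 places in all, and reads mapped to several places were not counted. None of the windows of the other 7 members had such a copy.

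Anxa1 (chr19:20447918-20465434, minus strand), the anti-inflammatory annexin and a ligand of formyl peptide receptors, was the scarcest member. Its CPM were 5.34, 2.02 and 4.13 in MN and 5.91, 8.47 and 9.88 in MT, with every MT library above every MN library. They were 11.4, 11.5 and 10.0 in FN and 10.2, 0 and 12.8 in FT. The 0 counts in FT2 allow a level of up to 0.653 CPM (3 counts, counting error only), below all other libraries. Anxa5 (chr3:36347847-36374765, minus strand) was the most even member over the libraries other than FN2, FT2 and FT3. It stood at 3163, 2957 and 2934 CPM in MN and 2974, 3058 and 2811 in MT. It was 2723, 4367 and 2691 in FN and 2818, 689.5 and 4510.3 in FT. The libraries other than FN2, FT2 and FT3 spanned 2691 to 3163 CPM. Over all libraries Anxa5 ranged more widely than Anxa2, from 689.5 to 4510.3 CPM against 1436 to 4202.

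**Figure D2:**
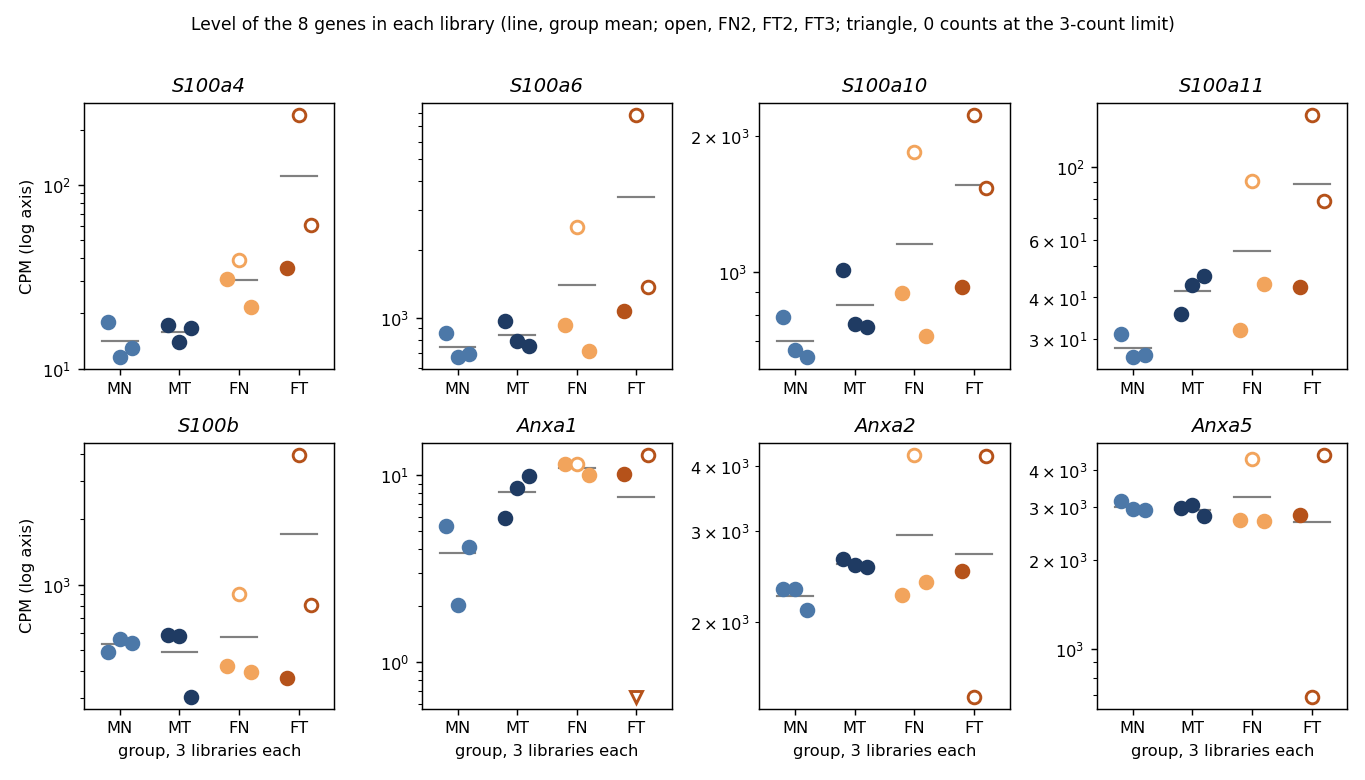
CPM (log axis) of each gene in the 12 libraries by group, with the group mean as a line, open points for FN2, FT2 and FT3, and a triangle at the 3-count limit for the 0 counts of Anxa1 in FT2. S100a4 is higher in all 6 female libraries, S100a11, Anxa1 and Anxa2 are higher in each MT than in each MN library, and the open points spread most. The share of all genes separated between all female and all male libraries was not computed.

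MT versus MN asks what a tongue tumor changes in males, and none of the libraries that stood apart is in these groups. S100a11, Anxa1 and Anxa2 were higher in all 3 MT than in all 3 MN libraries. S100a11 had a mean of 28.1 ± 2.63 CPM in MN and 42.0 ± 5.69 in MT (SD, n = 3 each), Anxa1 of 3.83 ± 1.68 and 8.09 ± 2.01, and Anxa2 of 2247 ± 122 and 2591 ± 46.6. Such separation was found for 3 of 8 members and for 5.8% of 13835 tested genes. In the edgeR fit of all 12 libraries the log2 fold changes were 0.60 (SE 0.54, unadjusted p = 0.286, adjusted p = 1.00) for S100a11, 1.09 (SE 0.80, unadjusted p = 0.190, adjusted p = 1.00) for Anxa1 and 0.22 (SE 0.41, unadjusted p = 0.595, adjusted p = 1.00) for Anxa2. None passed the test, and no gene at all had an adjusted p under 0.05 (0% of 13835). The looser criteria (unadjusted p under 0.05, fold over 1.5 and mean RPKM over 5 in either group) were met by 0 members, beside 0.13% of genes higher in MT, and an unadjusted p under 0.05 by 0 members, beside 0.426% of genes. DESeq2 and limma-voom with sample quality weights also called 0 members at an adjusted p under 0.05. Over 24 alternative fits the adjusted p ran from 0.101 to 1.00 for S100a11, from 0.10 to 1.00 for Anxa1 and from 0.431 to 1.00 for Anxa2, and all 24 gave each a positive log2 fold change. The fits share their libraries and every MT library exceeded every MN library for these genes, so that this sign was largely fixed beforehand.

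The shared spread of that fit includes the 3 libraries that stood apart. Without them, in the fit of 9 libraries, the log2 fold changes kept their size with smaller errors: 0.60 (SE 0.15, unadjusted p = 0.00177, adjusted p = 0.298) for S100a11, 1.11 (SE 0.32, unadjusted p = 0.00507, adjusted p = 0.427) for Anxa1 and 0.22 (SE 0.082, unadjusted p = 0.0186, adjusted p = 0.613) for Anxa2. S100a11 then met the looser criteria, as 0.677% of genes did as higher, and Anxa1 missed them by its RPKM under 5. The 5 other members had log2 fold changes of -0.015 (Anxa5) to 0.28 (S100a10) over 12 libraries and none was separated between the groups. The median over the 8 members was 0.21, beside 0.00698 over all genes tested. The Anxa5 to Anxa2 ratio in RPKM ran from 2.84 to 3.10 in MN and from 2.45 to 2.64 in MT, without overlap. Macrophage markers were high in MT3 alone among the males, at a sum of 332 CPM against 32.8 to 52.9 in the other 5 male libraries, with 0 of 14 markers at 0 counts in either group, and 3 of them (C1qa, Ctss and Lyz2) met the looser criteria as higher in MT. The sum over the 11 fibroblast markers was 343 to 421 CPM in MN and 445 to 760.5 in MT, without overlap. The single markers went both ways. Of 10 tested, 6 had a positive and 4 a negative log2 fold change, and 1, Apod, met the criteria as higher in MT. Apod was higher in all MT than in all MN libraries and 1 other marker was lower. In the fit of 9 libraries Col1a1 was at -0.76, Col1a2 at -0.42 and Col3a1 at -1.38. Markers of axon injury, the response of a neuron whose ending is damaged, separated MT from MN too: 8 of 14, Atf3, Sprr1a, Gal and Gap43 among them, were higher in all MT than in all MN libraries, and the sum over the 14 was 1026 to 1154 CPM in MN and 1503 to 1646.5 in MT. The part of these markers in the members' values was not tested.

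The 250 bases before the start of these 3 genes, and of S100a4, are printed because the 3 were higher in all MT than in all MN libraries, and S100a4 in all 6 female than in all 6 male libraries. They come from RefSeq (mouse build GRCm38.p6, transcribed strand), which matched 7 of the 8 members, S100a10 not among them. Capitals mark TATAAA, the TATA box core, and TGANTCA, the AP-1 core, where N is any base. Both were searched on both strands, and TGANTCA reads the same on either. The motifs do not overlap each other in these windows.
S100a11 (chr3:93520246-93520495, plus strand): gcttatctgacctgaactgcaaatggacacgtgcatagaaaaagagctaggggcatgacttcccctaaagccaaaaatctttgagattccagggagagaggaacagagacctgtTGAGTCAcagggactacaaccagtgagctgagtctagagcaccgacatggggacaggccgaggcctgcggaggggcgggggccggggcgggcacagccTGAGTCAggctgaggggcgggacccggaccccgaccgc
Anxa2 (chr9:69453433-69453682, plus strand): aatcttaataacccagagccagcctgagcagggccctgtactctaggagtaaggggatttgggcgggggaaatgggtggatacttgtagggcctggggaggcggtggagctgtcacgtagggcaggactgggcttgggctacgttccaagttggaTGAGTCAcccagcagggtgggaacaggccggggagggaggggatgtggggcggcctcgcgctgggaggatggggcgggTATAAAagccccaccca
Anxa1 (chr19:20390672-20390921, minus strand): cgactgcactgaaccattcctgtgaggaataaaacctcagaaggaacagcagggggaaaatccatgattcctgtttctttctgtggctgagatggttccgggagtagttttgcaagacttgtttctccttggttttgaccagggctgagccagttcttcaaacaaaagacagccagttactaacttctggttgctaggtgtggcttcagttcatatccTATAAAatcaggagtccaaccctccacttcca
S100a4 (chr3:90603520-90603769, plus strand): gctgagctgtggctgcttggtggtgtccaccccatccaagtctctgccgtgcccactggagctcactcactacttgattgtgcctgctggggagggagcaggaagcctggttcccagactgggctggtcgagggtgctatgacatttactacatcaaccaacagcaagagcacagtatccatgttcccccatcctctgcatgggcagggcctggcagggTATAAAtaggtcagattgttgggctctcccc
Counted from the start of the gene, TGANTCA begins at positions -136 and -38 in S100a11 and at -95 in Anxa2, and it is in 6.87% of all 27025 promoters of this length. TATAAA begins at -31 in S100a4, -32 in Anxa1 and -17 in Anxa2, beside 13.0% of all promoters. GGGCGG was in S100a11 and Anxa2 (32.9% of all), and CCAAT in S100a6 and S100b (34.5%). None of the 4 motifs was in the window of Anxa5. A match is a description of these letters and not a site in use.

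FT versus FN asks the same in females, and here the libraries that stood apart made up 1 of 3 FN and 2 of 3 FT libraries. Over all 12 libraries S100a4 had a log2 fold change of 2.07 (SE 0.65, unadjusted p = 0.00615, adjusted p = 0.994) in edgeR and S100b of 1.75 (SE 0.76, unadjusted p = 0.0365, adjusted p = 0.994). These were the 2 members that met the looser criteria, beside 1.95% of genes higher in FT, and the 2 with an unadjusted p under 0.05, beside 3.82% of genes. At an adjusted p under 0.05 edgeR, DESeq2 and limma-voom called 0 members, with an adjusted p over 24 fits of 0.183 to 1.00 for S100a4 and 0.196 to 1.00 for S100b, beside 0% of all genes in edgeR. No member was higher in all FT than in all FN libraries, beside 1.22% of genes. S100a6 reached 1.44 (SE 0.75), S100a11 0.75 (SE 0.54) and S100a10 0.50 (SE 0.49), and the annexins -0.55 (SE 0.78) for Anxa1, -0.35 (SE 0.49) for Anxa5 and -0.15 (SE 0.41) for Anxa2. None of these 6 met the criteria. Without FN2, FT2 and FT3, FT is the lone FT1, assumed to vary like the other groups, and FT versus FN was 0.44 (SE 0.28) for S100a4, -0.14 (SE 0.31) for S100b, 0.39 (SE 0.21) for S100a6, 0.19 (SE 0.22) for S100a11 and 0.20 (SE 0.21) for S100a10. The annexins were then at -0.072 (SE 0.45) for Anxa1, 0.064 (SE 0.12) for Anxa5 and 0.12 (SE 0.12) for Anxa2, and 0 members met the criteria, beside 0.356% of genes higher. Without FT2 alone the values were 0.57 (SE 0.39) for S100a4 and -0.081 (SE 0.53) for S100b, and 0 members met the criteria, beside 0.221% of genes higher. Leaving out FN2 instead, 5 members met them (the 5 S100 genes), beside 7.37% of genes higher, and the median over the members was 1.38. Without FT1, 4 did (S100a4, S100a6, S100a11 and S100b), beside 5.48%. In 10 libraries, without FN2 and FT2, 5 did (S100a4, S100a6, S100a10, S100a11 and Anxa2), beside 7.02%, and the annexins were at 0.21 (SE 0.39) for Anxa1, 0.56 (SE 0.25) for Anxa5 and 0.65 (SE 0.26) for Anxa2. S100b also missed them without FN1 (unadjusted p = 0.108) or FN3 (unadjusted p = 0.111). The median over the members was 0.63, beside -0.064 over all genes, and 0.16 without the 3 libraries.

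FN versus MN compares the sexes without tumors, and FN2 is in it. With the sex chromosomes set aside, 13360 genes were tested, all 8 members included. S100a4, S100a11 and Anxa1 were higher in all 3 FN than in all 3 MN libraries, 3 of 8 members beside 9.66% of genes. S100a11 had a log2 fold change of 1.18 (SE 0.54, unadjusted p = 0.0471, adjusted p = 0.809) in edgeR and met the looser criteria, 1 member beside 3.53% of genes higher in FN and, by unadjusted p under 0.05 alone, 5.57% of genes. Anxa1 was 1.64 (SE 0.80, unadjusted p = 0.0599, adjusted p = 0.809) and S100a4 1.25 (SE 0.64, unadjusted p = 0.0690, adjusted p = 0.809). At an adjusted p under 0.05 edgeR and DESeq2 called 0 members (0% of genes in edgeR). That S100a11 call ended without FN2 (log2 fold change 0.40), and without FT3 or any 1 of the MN and MT libraries the unadjusted p was 0.0547 to 0.105. At the same threshold limma-voom with sample quality weights called Anxa1 (adjusted p = 0.00711) and S100a4 (adjusted p = 0.0164), 2 members beside 5.99% of genes. Without FN2 and the 2 FT libraries, Anxa1 was 1.45 (SE 0.35, unadjusted p = 0.00131, adjusted p = 0.0931), S100a4 0.84 (SE 0.22, unadjusted p = 0.00245, adjusted p = 0.113) and S100a11 0.38 (SE 0.17, unadjusted p = 0.0398, adjusted p = 0.306) in edgeR, so that S100a4 met the criteria, beside 2.66% of genes higher, and S100a11 no longer did. There S100a6 went from 1.12 (SE 0.75) to 0.10 (SE 0.16), S100a10 from 0.90 (SE 0.50) to 0.15 (SE 0.16) and Anxa2 from 0.56 (SE 0.41) to -0.0053 (SE 0.091). Over 24 alternative fits the adjusted p ran from 0.00711 to 1.00 for Anxa1, from 0.0164 to 1.00 for S100a4 and from 0.198 to 1.00 for S100a11. S100b changed sign, from 0.31 (SE 0.74) to -0.42 (SE 0.23). In a fit of MN, FN1 and FN3 alone, chosen after the data were seen, edgeR called Anxa1 (adjusted p = 0.0254), S100a4 (adjusted p = 0.0383) and S100b (log2 fold change -0.42, adjusted p = 0.0197, range over the fits 0.0197 to 1.00), 3 members beside 5.53% of genes. Anxa5 also changed sign, from 0.27 (SE 0.49) to -0.21 (SE 0.090). The 8 members had a median of 1.01, beside 0.068 over all genes, and of 0.12 without the 3 libraries.

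FT versus MT compares the sexes with tumors, and FT2 and FT3 are in it. S100a4 and S100a6 were higher in all FT than in all MT libraries, 2 of 8 members beside 8.03% of genes. The log2 fold change was 3.14 (SE 0.67, unadjusted p = 0.000355, adjusted p = 0.255) for S100a4 and 2.36 (SE 0.77, unadjusted p = 0.00840, adjusted p = 0.326) for S100a6 in edgeR. The 5 S100 genes all met the looser criteria, which 6.76% of genes met in this direction, and had an unadjusted p under 0.05, as 12.1% of genes did, and the 3 annexins did not. S100b stood at 2.14 (SE 0.77), S100a11 at 1.33 (SE 0.54) and S100a10 at 1.12 (SE 0.50), against 0.18 (SE 0.41) for Anxa2, -0.064 (SE 0.49) for Anxa5 and -0.0021 (SE 0.80) for Anxa1. Called at an adjusted p under 0.05 were 0 members in edgeR (0% of genes) and in limma-voom, and 2 in DESeq2, S100a4 (adjusted p = 0.000484) and S100a6 (adjusted p = 0.0419), beside 1.86% of genes. Over 24 alternative fits the adjusted p ran from 0.000484 to 1.00 for S100a4 and from 0.0419 to 1.00 for S100a6, the lowest being those of DESeq2. Without FT2 alone S100a4 was 1.63 (SE 0.39) and still met the looser criteria (beside 2.33% of genes higher), as it did without each other library in turn, while S100a6 was 0.57 (SE 0.54), S100b 0.30 (SE 0.53), S100a11 0.58 (SE 0.49) and S100a10 0.58 (SE 0.47) and none of these 4 did. S100b missed the criteria without MT3 too (unadjusted p = 0.0573), S100a11 without any 1 MT library (unadjusted p = 0.0549 to 0.0770), and S100a10 without FT3, MT2, MT3 or any 1 MN library (unadjusted p = 0.0508 to 0.110). Without the 3 libraries FT is the lone FT1, assumed to vary like the other groups, and S100a4 was at 1.09. There Anxa1 was 0.27 (SE 0.42), Anxa2 -0.11 (SE 0.12) and Anxa5 -0.13 (SE 0.11), and S100a6 was 0.29 (SE 0.20), S100a10 0.071 (SE 0.20), S100a11 -0.026 (SE 0.21) and S100b -0.48 (SE 0.30). The median over the 8 was 1.23, beside 0.072 over all genes, and 0.022 without them. FT versus FN shares its libraries with both comparisons of the sexes, which share none with each other. S100a4 was the member with a positive log2 fold change of at least 0.52 in both under all 24 alternative fits. These fits share their libraries, and S100a4 was higher in every female than in every male library, so that its sign was largely fixed beforehand.

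The difference between the sexes in the tumor effect was tested directly as an interaction. It was 1.89 (SE 0.89, unadjusted p = 0.0529, adjusted p = 1.00) for S100a4, the member nearest to the threshold, 1.84 (SE 1.05) for S100b, -1.64 (SE 1.11) for Anxa1 and 1.24 (SE 1.04) for S100a6. An unadjusted p under 0.05 was reached by 0 members, beside 1.47% of 13835 genes, and an adjusted one by 0 members in edgeR, DESeq2 and limma-voom, beside 0% of genes in edgeR. Without the 3 libraries, where FT is FT1 alone, S100a4 was 0.25, S100b -0.053, S100a6 0.19 and Anxa1 -1.18. The count of members with an unadjusted p under 0.05 was 3 without FN2 (S100a4, S100a6 and S100b), beside 5.02% of genes, and 2 without FT1 (S100a4 and S100b), beside 8%.

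**Figure D3:**
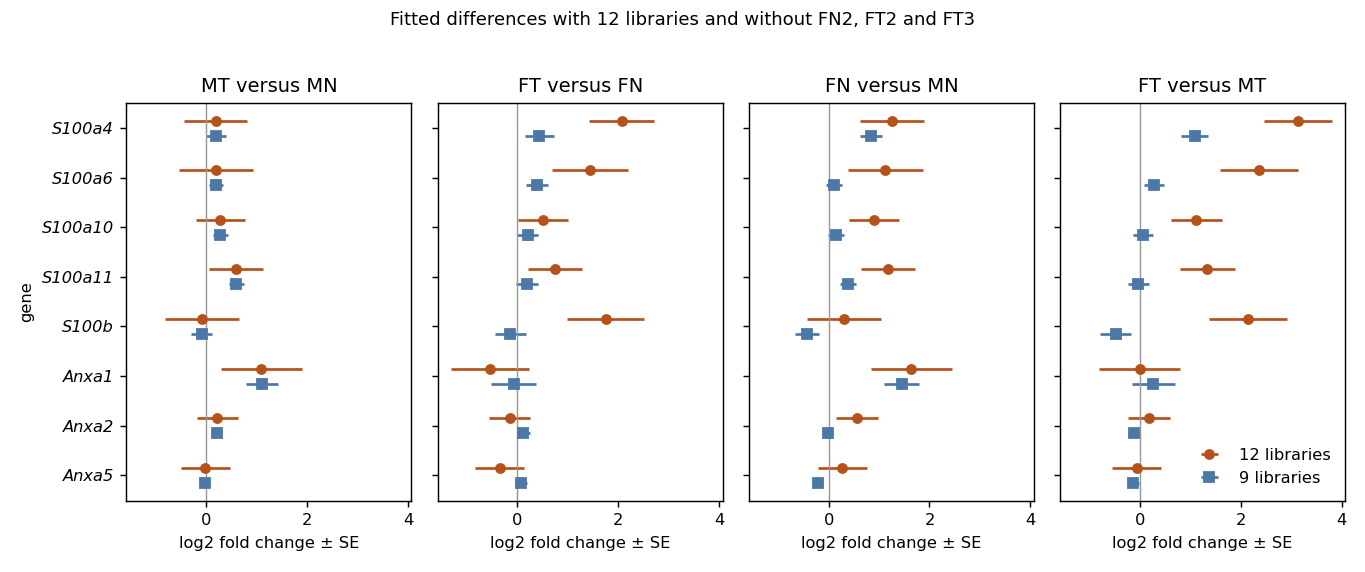
Log2 fold change ± SE from edgeR for the 8 genes in 4 comparisons, with all 12 libraries (circles) and without FN2, FT2 and FT3 (squares). MT versus MN hardly moves between the fits, whereas the S100 genes in FT versus FN and FT versus MT lie higher with the 3 libraries, up to 3.14 for S100a4 against 1.09 without them.

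Markers of other cells differed between the sexes as well. The 14 macrophage markers summed to 35.2 to 52.9 CPM in MN, 32.8 to 332 in MT, 197 to 447 in FN and 256 to 595 in FT, 8 of 14 met the looser criteria as higher in FN than in MN and 5 of 14 as higher in FT than in MT, and none was at 0 counts across a group. The 11 fibroblast markers summed to 343 to 421 CPM in MN, 445 to 760.5 in MT, 692 to 1278 in FN and 674 to 1345 in FT, with 3 of 10 tested markers meeting the criteria in FN versus MN, 2 of 10 in FT versus MT, and again none at 0. The 11 endothelial markers summed to 547 to 1288 CPM in MN, 663 to 1619 in MT, 1647 to 1696 in FN and 329 to 1548 in FT. Satellite glia markers, 12 in all, summed to 5424 to 6342 CPM in MN, 4687 to 6381 in MT, 9640.1 to 17420.5 in FN and 7993 to 19432 in FT. Without FN2, FT2 and FT3 the 3 female libraries still held 197 to 447 CPM of macrophage, 692 to 937 of fibroblast and 7993 to 9774 of satellite glia markers. MT3, with macrophage and fibroblast sums of 332 and 760.5 CPM within the female ranges, had 16.5 CPM of S100a4, inside the male range, and 9.88 of Anxa1, the highest of the males. Markers of axon injury summed to 1026 to 1154 CPM in MN, 1166 (FN1), 3022 (FN2) and 1656 (FN3) in FN, 1503 to 1646.5 in MT and 1496 to 2562 in FT, and 4 of 13 tested (Sprr1a, Gal, Npy and Nts) met the criteria as higher in FN than in MN and 1 (Sox11) as higher in FT than in MT. The part of other cells and of axon injury in the sex differences was not tested.

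In FT2 the members split by family, whereas in FN2 and FT3 every member lay above its 9-library mean. The S100 genes were above their 9-library mean in all 3, on the log2 CPM scale by 1.05 in FN2, 3.66 in FT2 and 1.69 in FT3 for S100a4, by 1.62 in FN2, 3.26 in FT2 and 0.74 in FT3 for S100a6 and by 0.98 in FN2, 3.10 in FT2 and 0.81 in FT3 for S100b. The differences in FN2, FT2 and FT3 were 1.22, 1.50 and 0.96 for S100a10 and 1.33, 1.99 and 1.12 for S100a11. The annexins were above it in FN2 and FT3 but below it in FT2, with differences of -0.74 for Anxa2, -2.07 for Anxa5 and -3.85 for Anxa1. The S100 genes are short, with 511 to 1484 bases of exon, and the annexins have 1678 to 3731. Length moved with the same libraries across all genes. The median difference was 1.19 in FN2, 0.34 in FT2 and 0.88 in FT3 over 1392 genes with at most 1500 bases of exon, and -0.65 in FN2, -0.63 in FT2 and -0.34 in FT3 over the 12263 longer ones. Set against genes within 25% of its own exon length, S100b in FT2 exceeded 97.4% of 1399 genes, S100a6 91.6% of 287 and S100a4 91.6% of 167, whereas S100a11 exceeded 45.4% of 108. Anxa5 exceeded 10.95% of 1671 genes of like length there and Anxa1 0.717% of 2929. In FN2 and FT3 Anxa2 lay higher within its length class, above 89.9% and 91.2% of 3730 genes. In the same 2 libraries S100a4 exceeded 28.7% and 94.6% of its class and S100a6 79.8% and 25.4%. These shares describe single libraries and carry no test.

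**Figure D4:**
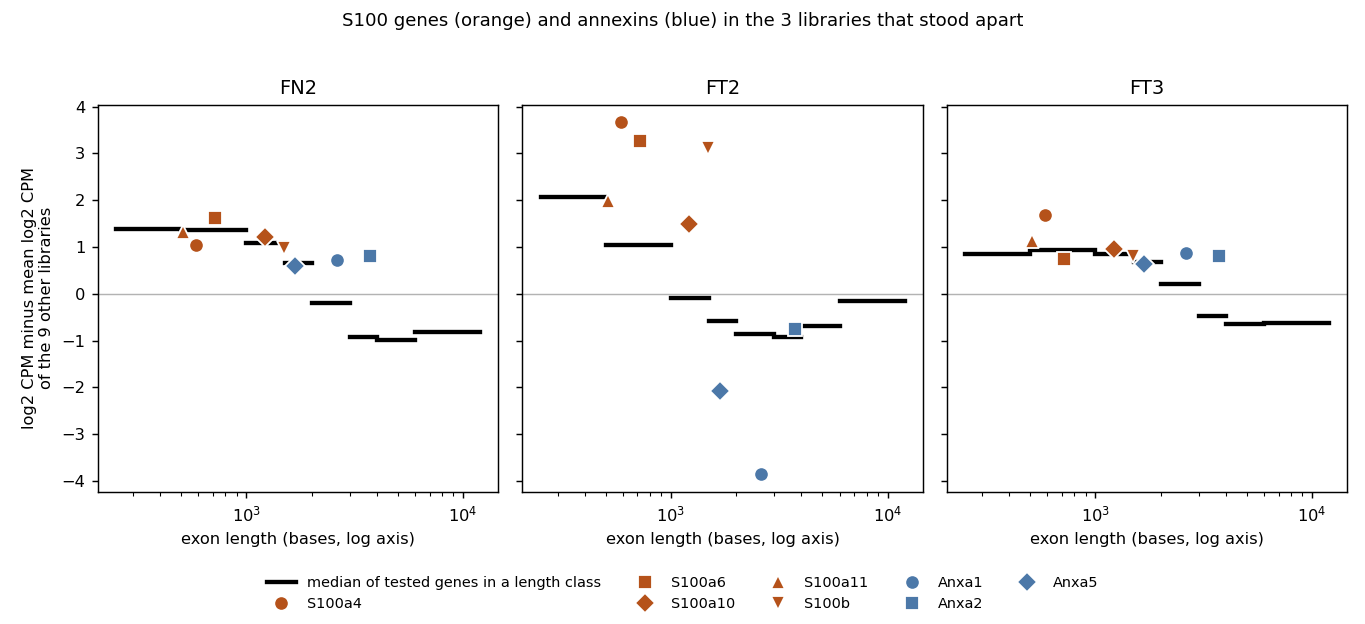
Difference in log2 CPM from the mean of the 9 other libraries against exon length (log axis, bases) in FN2, FT2 and FT3, for S100 genes (orange), annexins (blue) and the median of all tested genes in length classes (black bars). In FT2, S100a4, S100a6 and S100b lie above and Anxa5 and Anxa1 below genes of like length.

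As shares, the 5 S100 genes took 0.187% to 0.262% of the reads counted on genes in the 9 libraries, and 0.540%, 1.44% and 0.385% in FN2, FT2 and FT3. The 3 annexins took 0.499% to 0.564%, and 0.858%, 0.213% and 0.870%. Both shares were above the range of the 9 in FN2 and FT3, and in FT2 the annexin share was below it.

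**Figure D5:**
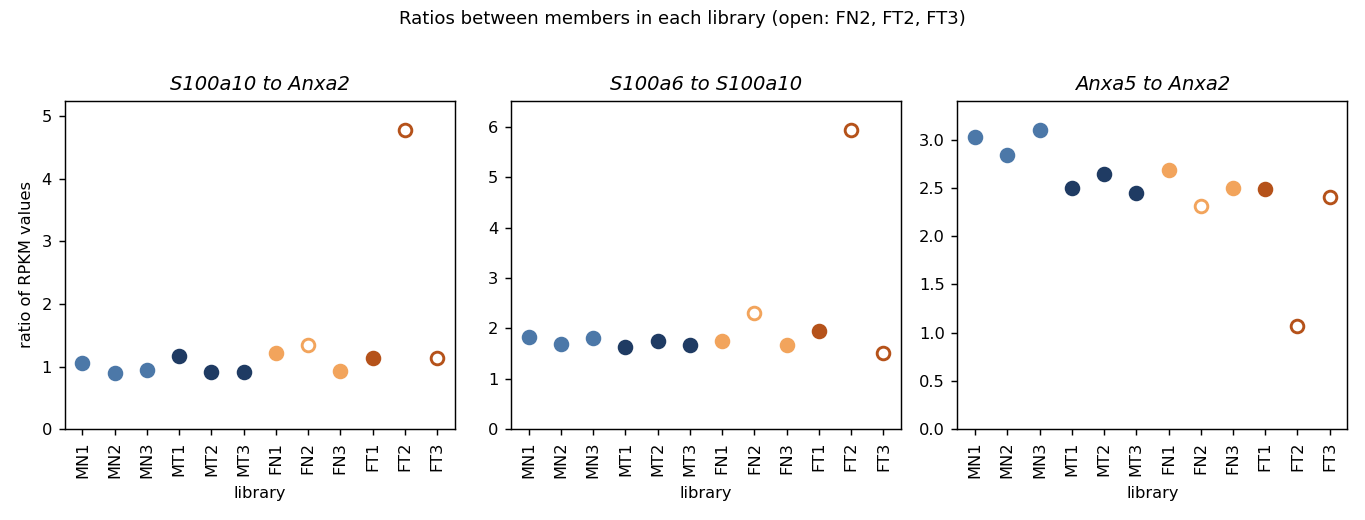
Ratio of RPKM values between members in each library (open points FN2, FT2 and FT3). The ratios of S100a10 to Anxa2 (4.77) and S100a6 to S100a10 (5.93) are highest and that of Anxa5 to Anxa2 (1.07) lowest in FT2, and the Anxa5 to Anxa2 ratio is higher in MN than in MT.

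Among 11 other S100 genes, 7 passed the filter on low counts and 0 were called at an adjusted p under 0.05 in any comparison. S100a13, S100a16 and S100a1 were the most abundant by CPM. Most S100 genes lie in a row on chromosome 3 of mm9, from S100a1 at 90314956 to S100a9 at 90499643, and S100a11 and S100a10 follow after a gap of 2824766 bases. Neighbours along the row differed widely in level: over the 9 libraries S100a6 had 1154 ± 193 RPKM (SD) and S100a4 33.7 ± 13.9, whereas S100a5 between them had 0.712 ± 0.728 and S100a3 2.43 ± 1.69. S100a13 had 177 ± 25.5, S100a1 52.9 ± 11.1 and S100a16 46.1 ± 6.94. S100a8 and S100a9, the pair of proteins abundant in neutrophils, had 37.9 ± 42.2 and 14.1 ± 15.5.

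In FN versus MN 3 of these met the looser criteria, all higher in FN, with log2 fold changes of 1.34 (SE 0.57) for S100a1, 2.69 (SE 0.89) for S100a8 and 2.14 (SE 0.90) for S100a9 in edgeR. In FT versus MT 4 did, 2.00 (SE 0.58) for S100a1, 3.49 (SE 0.91) for S100a8, 2.77 (SE 0.90) for S100a9 and 1.77 (SE 0.64) for S100a13. In the fit of 9 libraries the values were 0.46 (SE 0.16), 2.06 (SE 0.71) and 1.73 (SE 0.78) for S100a1, S100a8 and S100a9 in FN versus MN. In FT versus MT, where FT is then FT1 alone, they were 0.43, 2.58 and 2.50, and 0.0068 for S100a13. S100a8 and S100a9 still met the criteria in FN versus MN. In MT versus MN and FT versus FN 0 of 7 did. In FN1, FN3 and FT1, S100a8 was at 8.63 to 48.7 CPM against 0.562 to 11.8 in males and S100a9 at 4.38 to 25.9 against 0 to 6.95, whereas S100a13 was at 126 to 144 CPM, inside the male range of 107 to 160.0. S100a1, an S100 protein of muscle and neurons, was higher in all 6 female than in all 6 male libraries (43.0 to 172 against 26.8 to 35.6 CPM, and 43.0 to 49.0 CPM in the 3 females without FN2, FT2 and FT3). As for S100a4, the share of all genes separated so was not computed. The median of the 7 tested genes was 1.00 in FN versus MN, 2.00 in FT versus MT, 0.86 in FT versus FN and 0.00738 in MT versus MN, beside the medians over all genes given above. The neutrophil markers, 11 found of 12, summed to 12.2 to 54.9 CPM in MN, 37.1 to 106 in MT, 52.6 to 292 in FN and 27.4 to 92.9 in FT, with Elane at 0 counts in MN, MT and FN. Of 7 tested neutrophil markers, 6 were at a positive log2 fold change in FN versus MN (median 1.73) and 5 in FT versus MT (median 1.45), and the criteria were met as higher by Retnlg and Lcn2 in the first and by Camp in the second. The part of neutrophils in the S100a8 and S100a9 values was not tested.

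Of 9 other annexin genes, 6 passed the filter, and Anxa6, the annexin with a duplicated core, was the most abundant at 693 CPM over 12 libraries. Anxa6 was lower in all 3 libraries that stood apart, with differences of -1.82 in FN2, -1.04 in FT2 and -0.50 in FT3 on the log2 CPM scale. Anxa7 was at 304 CPM and Anxa4 at 23.9 CPM. Anxa3 met the looser criteria in FN versus MN, with a log2 fold change of 1.32 (SE 0.52) in edgeR, and was the 1 of the 6 that did in any comparison over 12 libraries. In the fit of 9 libraries it was 1.27 (SE 0.43) and met them still, and so did Anxa4 at 0.65 (SE 0.19) there. In FT versus FN of that fit, where FT is FT1 alone, Anxa4 was at -0.59. The CPM of Anxa3, at 23.2 to 29.8 in FN, stood against 5.94 to 15.3 in MN. Anxa4 was higher in all MT than in all MN libraries, with a log2 fold change of 0.46 (SE 0.46). The median of the 6 was 0.00950 in MT versus MN, 0.043 in FT versus FN, 0.11 in FN versus MN and -0.18 in FT versus MT.

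The partners were 17 genes for proteins that S100 proteins or annexins bind, carry or signal through, such as the channels Scn10a, Kcnk3 and Accn2 (Asic1), the serotonin receptors Htr1b and Htr4, the scaffold Ahnak, the plasminogen activator Plat and the formyl peptide receptors Fpr1 and Fpr2. Of these, 14 passed the filter and 0 were called at an adjusted p under 0.05. Scn10a, the sodium channel Nav1.8 that S100A10 carries to the membrane, was the most abundant, at 1017 to 1163 CPM in MN, 872 to 939 in MT, 236 to 774 in FN and 337 to 888 in FT. Each MT library lay below each MN library, with a log2 fold change of -0.24 (SE 0.39), while S100a10 was at 0.28 (SE 0.49). In FN versus MN Scn10a met the looser criteria, lower in FN than in MN at -0.90 (SE 0.40, unadjusted p = 0.0401, adjusted p = 0.809) in edgeR, and FN1 and FN3, at 697 and 774 CPM, also lay below all MN libraries. In the fit of 9 libraries it was -0.61 (SE 0.10) with an adjusted p of 0.0320 in edgeR. Scn10a was not alone in this. Of the 21 sensory neuron markers, Scn10a included, 7 were lower in all FN than in all MN libraries and 1 was higher. Without FN2, FT2 and FT3, 13 were lower and 1 was higher. The share of all genes lower in all FN libraries was not computed for either set, beside 9.66% higher over all FN and MN libraries. With FN1 and FN3 alone in FN, separation is also easier to reach, so that these counts do not show whether the markers were unusual. Ahnak, a scaffold that binds the S100A10 and annexin A2 complex, met the looser criteria in FT versus FN with 1.70 (SE 0.67) and in FT versus MT with 2.03 (SE 0.68), and FT2 held 1286 CPM of it against 137 to 223 in all other libraries. In the fit of 9 libraries, where FT is FT1 alone, Ahnak was 0.16 in FT versus FN and 0.28 in FT versus MT. Myh9, the nonmuscle myosin that S100A4 binds, met the criteria in FT versus FN with 1.25 (SE 0.50) and in FT versus MT with 1.13 (SE 0.50), with 153 CPM in FT2 against 26.1 to 54.9 elsewhere. In the 9 libraries, again with FT1 alone in FT, Myh9 was 0.23 in both. In FT versus MT the criteria were also met by Kcnk3 at 1.23 (SE 0.55) and by Plat at -1.02 (SE 0.46), and FT1, at 14.5 and 48.6 CPM, lay inside the MT range of 8.68 to 16.7 and inside that of 46.7 to 71.6. In the 9 libraries, with FT1 alone in FT, Kcnk3 was at 0.086 and Plat at -0.29. The S100A6 partner Cacybp averaged 205 CPM. The partners' median was 0.0148 in MT versus MN, 0.28 in FT versus FN, 0.086 in FN versus MN and 0.29 in FT versus MT.

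The likeness of 2 genes was described by the root mean square difference of their log2 CPM, each centred on its own mean, over the 12 libraries, among 9541 other tested genes with a mean CPM of at least 10. A value of 0 would mean parallel profiles, and since the 3 libraries that stood apart spread most, they weigh most in it. The genes nearest to S100a6 were Atpif1 (0.0958), Uqcrq (0.0992) and Psma7 (0.105), against a median of 1.24 over all candidates, and those nearest to S100a10 were Ndufb6 (0.0986), Atp5h (0.101) and Uqcrb (0.102) (median 0.854). For Anxa2 they were Vdac3 (0.0740), Mmadhc (0.0756) and Ciapin1 (0.0819) (median 0.704), and for Anxa5 Fez1 (0.0670), Cops7a (0.0756) and Aldoart1 (0.0908) (median 0.833). S100b was nearest to Ndufc1 (0.241), Ndufv3 (0.267) and Cox5b (0.270) (median 1.18). The nearest genes of the remaining members were Dcxr (0.228), Phpt1 (0.233) and D8Ertd738e (0.234) for S100a11 (median 0.975), Rpl35 (0.340), Lst1 (0.348) and 1810027O10Rik (0.354) for S100a4 (median 1.38) and Emcn (0.365), Fas (0.368) and Bcas1 (0.491) for Anxa1 (median 1.35, 9542 candidates).

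Over the 9 libraries the neighbours changed, with 1 of the 24 kept. S100b was then nearest to Ntrk3 (0.0648, median 0.365), which is on the list of large myelinated neuron markers. S100a6 became the third nearest gene of S100a10, at 0.0757 (median 0.274), after Psmb1 and Atpif1. Anxa5 was nearest to Dbnl (0.0240), Tubb2c (0.0316) and Cops7a (0.0317) (median 0.187), and Anxa2 to Eif3l (0.0458), Dhrs1 (0.0503) and Aldoa (0.0533) (median 0.206). S100a4 was nearest to 1300014I06Rik (0.181), Tst (0.201) and Crip1 (0.211) (median 0.522), S100a6 to Atp5h (0.0554), Mrps16 (0.0608) and Pdcd2 (0.0645) (median 0.289), S100a11 to Serpina3i (0.0702), Ebf4 (0.0960) and Cpxm1 (0.101) (median 0.346) and Anxa1 to Mfng (0.294), Klf15 (0.296) and Efcab4a (0.320) (median 0.705). Among pairs of members, S100a6 with S100a10 (0.0757) and Anxa2 with Anxa5 (0.120) were the closest over the 9 libraries, ahead of S100a10 with Anxa2 (0.168). Over the 12 libraries these 3 pairs stood at 0.504, 0.379 and 0.632, and S100a10 with S100a11 was the closest pair at 0.297.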

How the data were processed

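RNA of sorted lingual neurons was amplified by SMART-seq2 and sequenced as single reads of 50 bases, and the deposited files hold read counts per gene symbol, which the authors made with CASAVA 1.8.2, TopHat2, SAMtools and HTSeq on mm9. The other versions, the annotation and the strand setting are not given in the sources used here. The rows that name no gene held 76.3% to 88.8% of reads, most of them mapped to several places or to no gene, and stayed out of totals and tests. Between 4592891 and 8922011 gene counts per library remained. CPM were taken over the gene rows, and RPKM used the combined exon length of GENCODE vM1 on mm9, found for 21627 of 22609 symbols (95.7%). No other value columns were left aside (0).

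Counts were tested with edgeR 4.0.16 (R 4.3.3, quasi-likelihood, TMM, filterByExpr with a minimum count of 10, all 12 libraries, no covariate), and p-values were adjusted by Benjamini-Hochberg over all tested genes. SE is the absolute log2 fold change over the square root of F. DESeq2 1.42.0 and limma 3.58.1 (voom) were alternatives. The looser criteria follow the thresholds in the methods of the study. The 8 genes are named in every comparison, the other S100, annexin and partner genes where they are among the 3 most abundant of their list or met a call rule. S100a3, S100a5 and the named marker genes of other cells and of axon injury were chosen after their values were seen. The 3 nearest genes by root mean square difference of centred log2(CPM + 0.5) are named for each, except that for S100b over the 9 libraries only the nearest is given and the rest is not reported here. The members and lists were chosen with earlier results of these data known. The fits were tested on simulated data. An offset for exon length and fits of 2 groups without the 3 libraries were chosen after seeing the data. Same-numbered libraries correlated from -0.386 to 0.600 in their deviations, with 6 of 18 over 0.1, so that the numbers were not taken as pairs.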

Additional observations from a re-analysis of the deposited data

How the results depend on the processing

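The members' log2 fold changes were recomputed in 24 alternative fits, 12 of them leaving out 1 library and 2 chosen after seeing the data. Of 944 values, 848 kept their direction and side of the threshold, 9 kept their direction and passed an adjusted p of 0.05 newly, and 87 turned sign. Among the 87, S100b in FN versus MN also passed newly in the edgeR fit of MN, FN1 and FN3 alone (adjusted p = 0.0197). Over all 12 libraries the counts of members at the looser criteria were 0 in MT versus MN, 2 in FT versus FN, 1 in FN versus MN and 5 in FT versus MT, and 0 members were called by adjusted p in each. Values follow where a count moved by over 1.5 times, or from or to 0, or a sign turned, and the cause was not tested except that fewer libraries enter some fits. Smaller moves were to 3 at the criteria in FT versus FN with DESeq2, limma-voom, no filter or an exon-length offset and without FT3, and to 4 in FT versus MT with the replicate block and without MT1, FT3 or any 1 MN library. In the interaction, 1 member (S100a4) had an unadjusted p under 0.05 with DESeq2, with no filter and without FT3. Depth limits the scarce Anxa1 most, since FT2 shows nothing below 0.653 CPM, and 3 pools per group limit every comparison.

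With limma-voom, 1 met the criteria in MT versus MN, 2 were called by adjusted p in FN versus MN and 2 met the criteria in FT versus MT. Of the log2 fold changes, turned in sign were S100b 0.022 and Anxa5 0.023 in MT versus MN, Anxa2 0.37 and Anxa5 0.10 in FT versus FN, S100b -0.38 and Anxa5 -0.17 in FN versus MN and Anxa2 0.14 and Anxa5 0.079 in the sex difference in the tumor effect. With only the 2 groups compared, 1 met the criteria in MT versus MN, 1 met the criteria in FT versus FN and 2 met the criteria in FN versus MN. In 10 libraries, without FN2 and FT2, 1 met the criteria in MT versus MN, 5 met the criteria in FT versus FN and 2 met the criteria in FT versus MT. The signs turned for Anxa1 0.21, Anxa2 0.65 and Anxa5 0.56 in FT versus FN, S100b -0.43, Anxa2 -0.0099 and Anxa5 -0.21 in FN versus MN, Anxa1 0.55 and Anxa5 0.36 in FT versus MT and Anxa2 0.43 and Anxa5 0.57 in the sex difference in the tumor effect. In 9 libraries, without FN2, FT2 and FT3, FT was FT1 alone, 1 met the criteria in MT versus MN and 1 of the 24 nearest genes was shared. Of the log2 fold changes, turned in sign were S100b -0.14, Anxa2 0.12 and Anxa5 0.065 in FT versus FN, S100b -0.42, Anxa2 -0.0053 and Anxa5 -0.21 in FN versus MN, S100a11 -0.026, S100b -0.48, Anxa1 0.27 and Anxa2 -0.11 in FT versus MT and S100a10 -0.078, S100a11 -0.41, S100b -0.053 and Anxa5 0.080 in the sex difference in the tumor effect. With only the 2 groups compared and without FN2, FT2 and FT3, FT was again FT1 alone, 1 met the criteria in MT versus MN and 3 were called by adjusted p in FN versus MN. Turned signs were seen for S100b -0.12, Anxa2 0.14 and Anxa5 0.081 in FT versus FN, S100b -0.42, Anxa2 -0.0040 and Anxa5 -0.21 in FN versus MN and S100a11 -0.018, S100b -0.47, Anxa1 0.28 and Anxa2 -0.10 in FT versus MT. With the share of reads mapped to several places as a covariate, 1 met the criteria in FT versus FN and 1 met the criteria in FT versus MT. The signs turned for S100a10 -0.062 in FT versus FN, S100b -0.61 in FN versus MN, S100a11 -0.0064, S100b -0.38, Anxa1 0.54 and Anxa5 0.10 in FT versus MT and S100a6 -0.088, S100a10 -0.28 and S100a11 -0.53 in the sex difference in the tumor effect. With DESeq2, 2 met the criteria in FN versus MN and 2 were called by adjusted p in FT versus MT. Of the log2 fold changes, turned in sign were Anxa1 0.043 in FT versus MT. With no filter on low counts, 2 met the criteria in FN versus MN. With a replicate block, where the numbers were not shown to pair the samples, 0 met the criteria in FN versus MN. The signs turned for S100b -0.0017 in FN versus MN. With an offset for exon length, 0 met the criteria in FN versus MN and 3 met the criteria in FT versus MT. Of the log2 fold changes, turned in sign were S100b -0.33 and Anxa5 -0.21 in FN versus MN, S100a11 -0.15 in FT versus MT and S100a11 -0.40 in the sex difference in the tumor effect. With the size factors of DESeq2, the signs turned for Anxa1 0.057 in FT versus MT.

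Leaving out each library in turn, members at the criteria numbered 0 (without FT2) to 5 (without FN2) in FT versus FN, 0 to 3 (without FN3) in FN versus MN and 1 (without FT2) to 5 in FT versus MT. Called by adjusted p in FT versus MT were 0 to 3 members, the 3 being S100a4, S100a6 and S100b without FT1. In FN versus MN the count was 0 without FN2, FT3 or any 1 of the MN and MT libraries, 2 without FT1 and 3 also without FT2. In FT versus FN it was 1 without FN1 or FN3 and 4 without FT1, and in FT versus MT 2 without MT3 and 3 without MT2. The level order shifted by 0 to 2 members, the 2 being S100a6 and Anxa5 without FT2. With the longest transcript as length, S100a10 and S100a6 changed places over the 9 libraries. The log2 fold changes that turned sign without 1 library ranged over S100b -0.26 to 0.18 and Anxa5 -0.046 to 0.043 in MT versus MN, S100a6 -0.35 to 2.44, S100a10 -0.034 to 1.23, S100b -0.081 to 2.46, Anxa1 -1.17 to 0.0026, Anxa2 -0.59 to 0.39 and Anxa5 -0.98 to 0.11 in FT versus FN, S100b -0.41 to 0.57 and Anxa5 -0.19 to 0.45 in FN versus MN, Anxa1 -0.63 to 0.54, Anxa2 -0.26 to 0.41 and Anxa5 -0.70 to 0.35 in FT versus MT, S100a6 -0.55 to 2.24, S100a10 -0.32 to 0.95, S100a11 -0.59 to 0.93, Anxa2 -0.81 to 0.17 and Anxa5 -0.96 to 0.12 in the sex difference in the tumor effect. Among all tested genes, the criteria were met by 21, 301, 493 and 1090 genes in MT versus MN, FT versus FN, FN versus MN and FT versus MT over 12 libraries. In the 9, 125 genes met them in MT versus MN and 440 in FN versus MN. DESeq2 called 2, 0, 20 and 249 genes by adjusted p, limma-voom 47, 0, 800 and 0, and edgeR 0 in each.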
